A study of Homo sapiens with 6 samples.

Results

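Neuroblastoma cells of the adrenergic state, which resemble sympathetic noradrenergic neurons, are defined by a set of transcription factors that are expressed together. The levels of 8 of these factors were measured in SK-N-BE(2) cells with and without knockdown of Prp19, a component of the spliceosome. The factors were PHOX2A, HAND2, GATA2, GATA3, ISL1, TBX2, LMO1 and INSM1, taken by name as factors of the adrenergic circuit, and they were 8 of the 58302 genes in the files. All 8 were found and were above 0 in each of the 6 samples.

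SK-N-BE(2) is an established human neuroblastoma cell line with amplification of MYCN, and each sample was a bulk culture of this 1 line. RNA-seq was performed on 3 samples transfected with the negative control siRNA (siNC) and 3 samples transfected with an siRNA against Prp19 (siPrp19). The cells grew in MEM/F12 with fetal bovine serum and were otherwise untreated, so that transfection itself was shared by both groups. The sample labels give a transfection of 72 h, whereas the methods of the study give a shorter time, and the 3 samples of a group were described as biological replicates. The knockdown was transient, so that the samples are pools of transfected and any untransfected cells.

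In the sympathoadrenal lineage, PHOX2A and HAND2 act with GATA2 and GATA3 to switch on the enzymes of noradrenaline synthesis. In adrenergic neuroblastoma these factors, together with ISL1 and TBX2, occupy the large enhancers of their own and of each other's genes, an arrangement called a core regulatory circuit. LMO1 does not bind DNA itself but bridges other factors through its LIM domains, and INSM1 is a zinc finger protein of neuroendocrine progenitors that recruits repressors.

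PRPF19, the gene that encodes Prp19, was measured first to check the labels. Its level was 53.1, 53.1 and 64.9 FPKM in replicates 1 to 3 of siNC, against 21.8, 28.5 and 33.6 FPKM in replicates 1 to 3 of siPrp19. FPKM stands for the fragments mapped to a gene, divided by its exon length and by a scale factor of the library. Every siPrp19 sample was below every siNC sample, and the mean with siPrp19 was 49.0% of that with siNC. The difference was −1.04 (SE 0.19) on the log2 scale, with an adjusted p of 0.9999 in limma without a block, of 0.190 in limma with a block for replicate number, and of 2.67e-12 in limma voom with the same block on recovered reads. The exact permutation test, two-sided, returned p = 0.10, the smallest value that 3 samples against 3 can give. The knockdown was therefore partial, and it passed the false discovery rate (FDR) of 0.05 in some of the fits.

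The identity of the line was checked with marker lists. All 8 adrenergic markers, which include the noradrenaline enzymes DBH, TH and DDC, averaged 1 FPKM or more over the 6 samples, with a summed level of 344 to 490 FPKM with siNC and 333 to 525 FPKM with siPrp19. Of 10 mesenchymal markers, 7 reached that level, among them TWIST1 and VIM, with sums of 396 to 555 FPKM with siNC and 396 to 515 FPKM with siPrp19, while PRRX1, RUNX1 and RUNX2 stayed below it. Of the 6 fibroblast markers 5 reached it, with sums of 130 to 151 FPKM with siNC and 120 to 148 FPKM with siPrp19. The Schwann cell factors SOX10 and FOXD3 were listed at 0 in all 6 samples, and the 6 markers of that lineage summed to 1.91 to 3.32 FPKM with siNC and 2.72 to 3.30 FPKM with siPrp19.

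The 8 factors spanned a wide range of levels. FPKM is divided by exon length, so that levels of different genes can be set side by side. PHOX2A, with a mean of 373 FPKM with siNC, was 131.6-fold above INSM1, with a mean of 2.83 FPKM. By mean level with siNC among the 14462 genes that averaged 1 FPKM or more, PHOX2A ranked 72 and HAND2 ranked 85. GATA3 ranked 274 and GATA2 ranked 318. TBX2 ranked 672, ISL1 1547, LMO1 4950 and INSM1 10193, so that the circuit held some of the most abundant transcripts of these cells and also 1 transcript in the lower part of the range.

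The order of the means was PHOX2A, HAND2, GATA3, GATA2, TBX2, ISL1, LMO1 and INSM1. The ranges over the 3 siNC samples overlapped between PHOX2A and HAND2, and between GATA3 and GATA2, while within each of the 6 samples PHOX2A was above HAND2 and GATA3 above GATA2. Their order thus held within libraries, although the spread between libraries was larger than the gap. The GATA3 values rest on an exon length of 3253 bases, against 3436 in the annotation used here, and a longer length gives a lower FPKM. In siNC 1 GATA3 was at 102.2 and GATA2 at 100.4 FPKM, so that the order of these genes depends on the length used. GATA2 and TBX2 were close without overlapping, with a lowest GATA2 value of 66.0 FPKM and a highest TBX2 value of 64.2 FPKM. The other neighbours in the order did not overlap, and in the deposited values every neighbour in it kept its place in 6 of 6 samples.

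**Figure D1:**
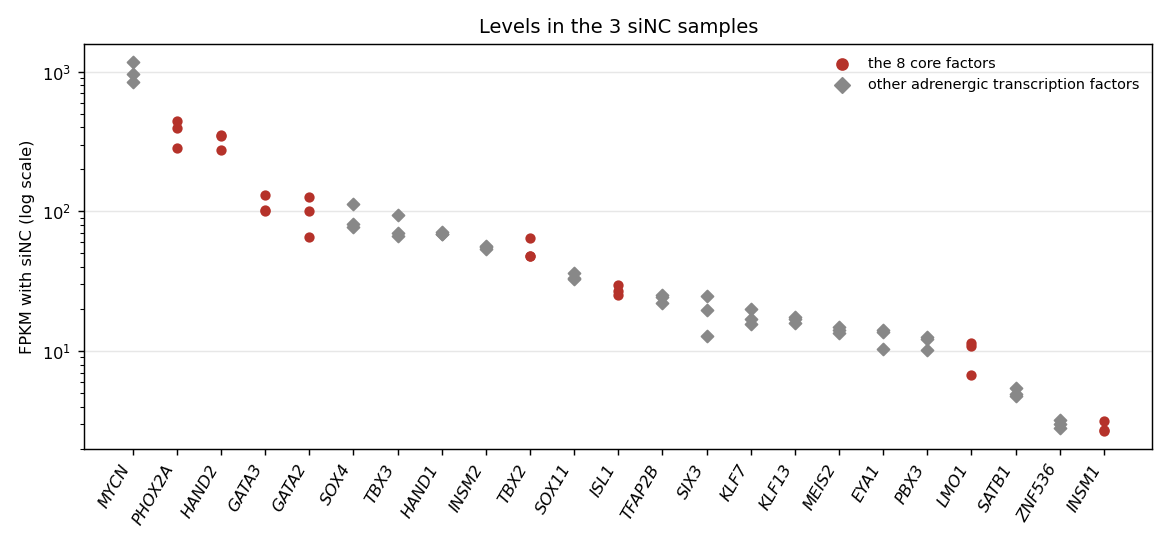
FPKM on a log scale (y axis) in each of the 3 siNC samples for the 8 core factors (red circles) and for other adrenergic transcription factors that averaged 1 FPKM or more (grey diamonds), ordered by mean. PHOX2A and HAND2 stood next below MYCN, and INSM1 was the lowest gene shown, with values of 2.67 to 3.13 FPKM.

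Whether loss of Prp19 changed the level of the core factors was asked next. For 7 of the 8 factors the difference between siPrp19 and siNC was within 0.2 on the log2 scale, and none of these passed the FDR in any fit of this comparison. INSM1 was the exception, with 68.0% of its siNC level. In limma without a block 0 of the 8 factors passed an FDR of 0.05, as did 0.0% of all 14462 genes tested. At an unadjusted p under 0.05 there was 1 of 8, against 1.56% of all genes. The median difference of the 8 factors was 0.04 on the log2 scale, and that of all genes was −0.0040. A mean that is lower in bulk RNA can come from fewer cells expressing a gene or from less RNA per cell, and these cannot be told apart here.

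The sample labels number the replicates of each group 1 to 3, and same-numbered samples deviated together, so the difference within each pair and the fit with a block for that number are also given. With the block in limma, 0 of the 8 factors and 0.0% of all genes passed the FDR. At an unadjusted p under 0.05 it was again 1 of 8, against 15.7% of all genes. In limma voom with the block, which uses whole read counts recovered from the FPKM values, 1 of the 8 factors passed the FDR, against 7.19% of the 14245 genes tested. It was lower, as were 4.49% of all genes, and 0 of the 8 passed as higher, against 2.7% of all genes.

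**Figure D2:**
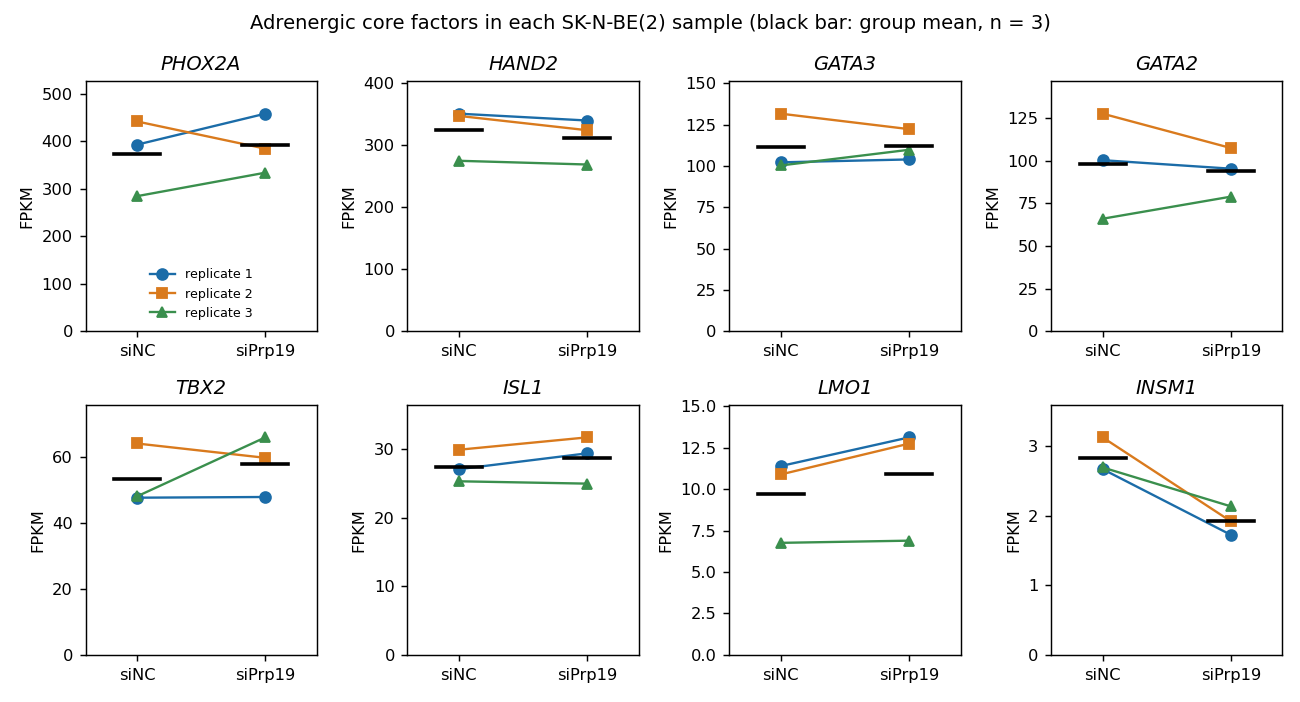
FPKM (y axis, from 0) of each of the 8 factors in the siNC and siPrp19 samples (x axis), with lines joining same-numbered replicates and black bars for the group means (n = 3). In INSM1 the groups did not overlap, and in PHOX2A, HAND2, GATA2, ISL1 and LMO1 replicate 3 (green triangles) was the lowest sample of both groups.

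PHOX2A and HAND2, which specify the noradrenergic fate, were the most abundant factors. PHOX2A (ENSG00000165462) lies on chromosome 11 between 72239077 and 72245664 (minus strand, GRCh38, as are all gene positions here). Its level was 393, 442 and 284 FPKM for siNC 1 to 3 and 458, 384 and 334 FPKM for siPrp19 1 to 3, on 10034 to 18571 reads. The groups overlapped, and the difference changed sign between pairs, with 0.22, −0.20 and 0.23 on the log2 scale. The means were 373 ± 80.6 FPKM with siNC and 392 ± 62.5 FPKM with siPrp19 (SD, n = 3). The log2 difference was 0.08 (SE 0.22, 95% interval −0.44 to 0.61), and with the block the interval narrowed to −0.17 to 0.34 (limma, adjusted p = 0.712).

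HAND2 (ENSG00000164107), a basic helix-loop-helix factor on chromosome 4 between 173524969 and 173530229 (minus strand), was measured at 350, 346 and 274 FPKM with siNC and at 339, 323 and 268 FPKM with siPrp19. Both groups covered nearly the same range, while the siPrp19 sample was the lower of each pair by a small step, with differences of −0.05, −0.10 and −0.03 on the log2 scale. The means were 324 ± 42.8 FPKM with siNC and 310 ± 37.2 FPKM with siPrp19 (SD, n = 3). The log2 difference was −0.06 (SE 0.17, 95% interval −0.47 to 0.35), and with the block it lay between −0.16 and 0.04 (limma, adjusted p = 0.503), that is between 0.896 and 1.03 times the siNC level. The antisense gene HAND2-AS1 shares 867 exon bases with HAND2, 24.1% of the exon length of HAND2. Whether strand was used in counting is not given in the sources used here, so how reads in the shared bases were counted is not known. HAND2-AS1 itself was listed at a mean of 58.4 FPKM with siNC and 59.7 FPKM with siPrp19.

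GATA2 and GATA3 are zinc finger factors of the same family. GATA2 (ENSG00000179348), on chromosome 3 between 128479427 and 128493185 (minus strand), was the most variable of the abundant factors, with 100.4, 127.7 and 66.0 FPKM with siNC and 95.4, 107.5 and 79.0 FPKM with siPrp19. All siPrp19 values lay inside the siNC range. The pair differences were −0.07, −0.25 and 0.26 on the log2 scale, and the means were 98.0 ± 30.9 FPKM with siNC and 93.9 ± 14.3 FPKM with siPrp19 (SD, n = 3). The log2 difference was −0.02 (SE 0.26, 95% interval −0.64 to 0.60), with an interval of −0.28 to 0.24 with the block (limma, adjusted p = 0.939).

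GATA3 (ENSG00000107485), on chromosome 10 between 8045378 and 8075203 (plus strand), was steadier, with 102.2, 131.6 and 100.3 FPKM with siNC and 103.9, 122.3 and 109.8 FPKM with siPrp19. Replicate 2 was the highest sample of both groups, and the siPrp19 values again lay inside the siNC range. The means were 111 ± 17.6 FPKM with siNC and 112 ± 9.36 FPKM with siPrp19 (SD, n = 3). The log2 difference of 0.02 (SE 0.15, 95% interval −0.35 to 0.39) had an interval of −0.13 to 0.16 with the block (limma, adjusted p = 0.917). The divergent transcripts GATA2-AS1 and GATA3-AS1 share 0 exon bases with these genes in the annotation used.

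ISL1 (ENSG00000016082), a LIM-homeodomain factor of sympathetic and motor neurons, lies on chromosome 5 between 51383391 and 51394738 (plus strand). Its values were 27.0, 29.9 and 25.3 FPKM with siNC and 29.4, 31.7 and 24.9 FPKM with siPrp19. The groups overlapped, with means of 27.4 ± 2.32 FPKM and 28.7 ± 3.42 FPKM (SD, n = 3). The log2 difference was 0.06 (SE 0.14, 95% interval −0.27 to 0.39), and −0.07 to 0.19 with the block (limma, adjusted p = 0.595).

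TBX2 (ENSG00000121068), a T-box repressor that drives proliferation in neuroblastoma, lies on chromosome 17 between 61399896 and 61409466 (plus strand). Its values were 47.7, 64.2 and 48.1 FPKM with siNC and 47.9, 59.8 and 66.0 FPKM with siPrp19. Replicate 3 of siPrp19 was the highest sample, and the pair differences of 0.01, −0.10 and 0.46 on the log2 scale show that the higher siPrp19 mean came from that pair. The means were 53.3 ± 9.39 FPKM and 57.9 ± 9.20 FPKM (SD, n = 3), and the log2 difference was 0.12 (SE 0.18, 95% interval −0.32 to 0.56). Without replicate 3 of both groups it was −0.05. With the block the interval was −0.18 to 0.42 (limma, adjusted p = 0.647).

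LMO1 (ENSG00000166407), a LIM-only cofactor and a neuroblastoma susceptibility gene, lies on chromosome 11 between 8224304 and 8268716 (minus strand). Its values were 11.4, 10.9 and 6.76 FPKM with siNC and 13.1, 12.7 and 6.89 FPKM with siPrp19, on 226 to 504 reads. Replicate 3 was far below the other samples in both groups, and the siPrp19 sample was the higher of each pair, with differences of 0.20, 0.23 and 0.03 on the log2 scale. The means were 9.68 ± 2.54 FPKM with siNC and 10.9 ± 3.49 FPKM with siPrp19 (SD, n = 3). The log2 difference was 0.15 (SE 0.31, 95% interval −0.60 to 0.90). With the block the SE was 0.06 and the interval −0.01 to 0.32 (limma, adjusted p = 0.342), between 0.991 and 1.25 times the siNC level.

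INSM1 (ENSG00000173404) was the factor that differed most. It is a gene of a single exon on chromosome 20 between 20368121 and 20370949 (plus strand), so that its span of 2829 bases is all exon. Its values were 2.67, 3.13 and 2.70 FPKM with siNC and 1.73, 1.92 and 2.14 FPKM with siPrp19, on 111 to 165 reads per sample. Every siPrp19 sample was below every siNC sample, which held for 1 of the 8 factors and for 2.84% of all genes tested. No factor had every siPrp19 sample above every siNC sample (0 of 8, against 2.77% of all genes).

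The mean of INSM1 was 2.83 ± 0.257 FPKM with siNC and 1.93 ± 0.205 FPKM with siPrp19 (SD, n = 3), a log2 difference of −0.53 (SE 0.17, 95% interval −0.94 to −0.13). The pair differences were −0.60, −0.68 and −0.32. In limma without the block the adjusted p was 0.9999, and with the block it was 0.207 (SE 0.12). In limma voom with the block, on recovered reads, it was 0.0196, with a difference of −0.55 (SE 0.15). The exact permutation test, two-sided, returned p = 0.10. INSM1 thus passed the FDR in 1 of these 3 fits. On the same reads without the block it did not pass (limma voom, adjusted p = 0.999999). In the other fits with a block its limma adjusted p ranged from 0.197 to 0.535.

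Over the 8 factors, the siPrp19 sample was lower in all 3 pairs for 2 (HAND2 and INSM1), against 21.3% of all genes, and higher in all 3 pairs for 1 (LMO1), against 19.2% of all genes.

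**Figure D3:**
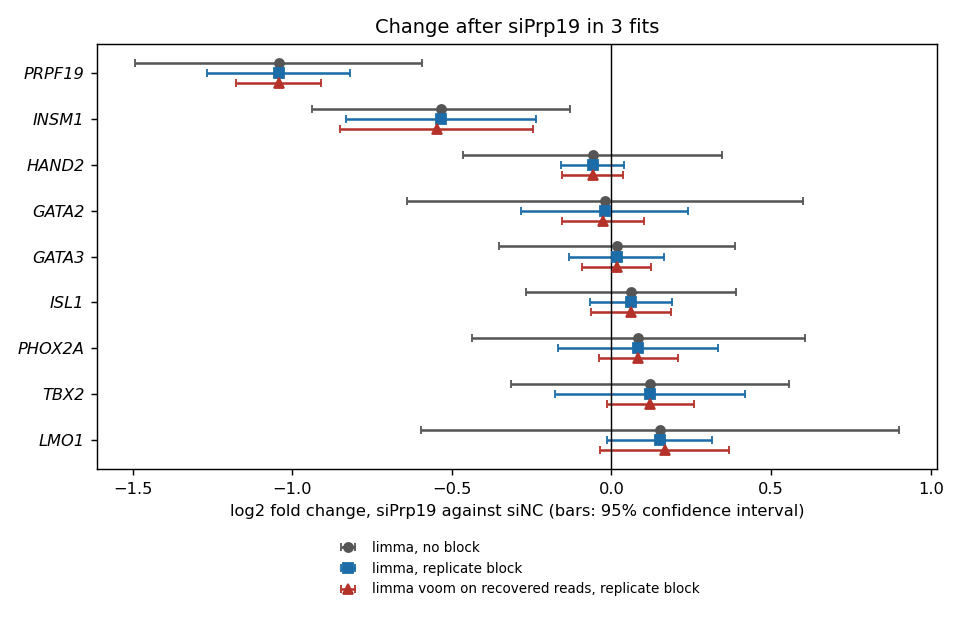
Log2 fold change of siPrp19 against siNC (x axis) with 95% confidence intervals for PRPF19 and the 8 factors (y axis) in limma without a block (grey), limma with the replicate block (blue) and limma voom with the replicate block (red). The intervals of 7 factors include 0 in each fit, and those of INSM1 and PRPF19 lie below 0.

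Replicate number held a larger share of the variation than knockdown for most of the factors. The sum of squares of the log2 values over the 6 samples was split into a share for replicate number, a share for siPrp19 against siNC and a remainder. The shares are not corrected for the number of levels. Replicate number has more levels than group, so its share is expected to be the larger even without any difference. Replicate number held 95.6% in HAND2, 94.9% in LMO1, 88.9% in ISL1, 88.4% in GATA3, 88.1% in GATA2, 78.4% in PHOX2A and 56.6% in TBX2. In 7 of the 8 factors it thus held over 50%, and the median over all genes tested was 80.9%. INSM1 was the reverse, with 7.67% for replicate number and 85.4% for siPrp19 against siNC. For comparison, the median share of siPrp19 against siNC over all genes was 5.68%.

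In the limma F-test of the replicate number, 6 of the 8 factors passed an FDR of 0.05, against 49.6% of all genes. The adjusted p (limma) was 0.00382 for LMO1, 0.00844 for HAND2, 0.0207 for GATA2, 0.0332 for ISL1, 0.0346 for GATA3 and 0.0453 for PHOX2A. It was 0.157 for TBX2 and 0.496 for INSM1. With eBayes run without a trend and robust, 2 of the 8 passed. What the replicate numbers stand for, such as a passage or a day, is not given in the labels.

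**Figure D4:**
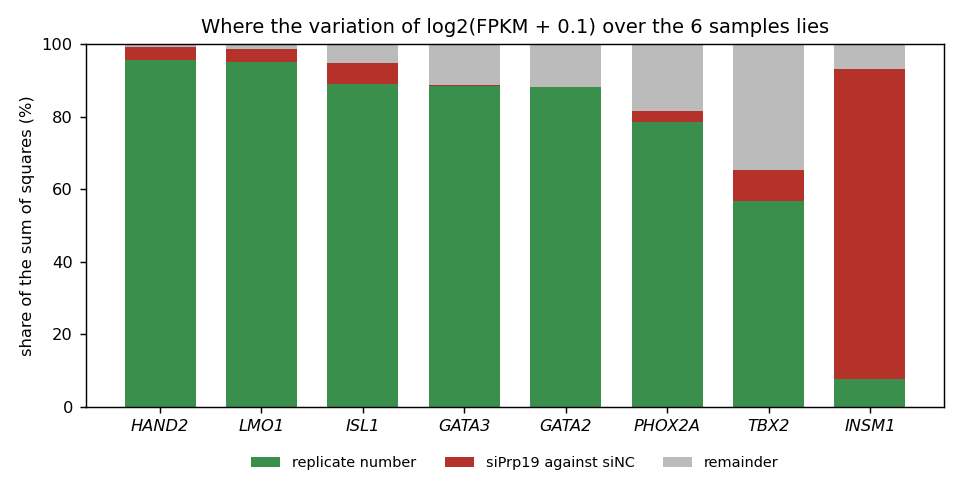
Share of the sum of squares of log2(FPKM + 0.1) over the 6 samples (y axis, %) held by replicate number (green), by siPrp19 against siNC (red) and by the remainder (grey) for each of the 8 factors (x axis). The green share is above 50% in every factor except INSM1, where it is 7.67%.

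Replicate 3 was the lowest sample of both groups in 5 of the 8 factors, PHOX2A, HAND2, GATA2, ISL1 and LMO1, against 27.8% of all genes. The difference between replicate 3 and the mean of replicates 1 and 2 in LMO1 was −0.71 on the log2 scale with siNC and −0.90 with siPrp19. In GATA2 it was −0.78 and −0.36, and in PHOX2A −0.55 and −0.33. The step was smaller in HAND2, with −0.34 and −0.30, and in ISL1, with −0.17 and −0.29. In each of these 5 factors the step was larger in both groups than the difference between siPrp19 and siNC.

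Some markers of the adrenergic state were lowest in replicate 3 as well, and others were not. Of the 8 adrenergic markers, 4 (DBH, TH, SLC18A1 and CHGB) were lowest in replicate 3 of both groups, against 27.8% of all genes. DDC, SLC18A2, SLC6A2 and CHGA were instead lowest in replicate 2 of both groups. DDC was highest in replicate 3 of both, with 61.7 FPKM with siNC and 59.4 FPKM with siPrp19. DBH, which makes noradrenaline from dopamine, was 44.2, 30.0 and 3.49 FPKM with siNC and 41.9, 26.7 and 3.94 FPKM with siPrp19. The vesicular transporter gene SLC18A1 was 5.29, 4.47 and 0.840 FPKM with siNC and 4.15, 3.09 and 1.10 FPKM with siPrp19. The 8 markers summed to 344 FPKM in replicate 3 of siNC, against 490 and 421 FPKM in replicates 1 and 2, and to 333 FPKM in that of siPrp19, against 525 and 391 FPKM. Of the 10 mesenchymal markers 5 were lowest in replicate 3 of both groups, as were 2 of the 6 fibroblast and 1 of the 6 Schwann cell markers. Their part in the lower factor levels was not tested.

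The promoters of these 5 factors were looked at because their transcripts were low in the same samples, and a link between motifs and those levels was not tested. GATA2 is described below by its matches alone, and the promoters of the other 4 are shown. They are RefSeq sequences of the build GRCh38.p14 that run from 250 bases before to 50 bases after a transcript start, in the direction of the gene. Capitals mark matches on either strand to TAAT, the core read by homeodomain proteins such as PHOX2A and ISL1, to CANNTG, the E-box read by helix-loop-helix proteins such as HAND2, to GATAA, read by GATA factors, or to GGTGTGA, read by T-box proteins. Adjacent or overlapping matches run together in 1 block of capitals. They lie at chr4:173530180-173530479 on the minus strand for HAND2, at chr11:8268738-8269037 on the minus strand for LMO1, at chr5:51383198-51383497 on the plus strand for ISL1 and at chr11:72244127-72244426 on the minus strand for PHOX2A.
HAND2: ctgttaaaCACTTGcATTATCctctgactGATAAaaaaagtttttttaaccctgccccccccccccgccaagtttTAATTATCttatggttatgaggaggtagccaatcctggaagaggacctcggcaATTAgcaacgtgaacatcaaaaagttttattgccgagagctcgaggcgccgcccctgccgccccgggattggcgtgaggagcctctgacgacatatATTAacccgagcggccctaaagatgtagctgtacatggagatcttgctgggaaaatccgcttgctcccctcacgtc
LMO1: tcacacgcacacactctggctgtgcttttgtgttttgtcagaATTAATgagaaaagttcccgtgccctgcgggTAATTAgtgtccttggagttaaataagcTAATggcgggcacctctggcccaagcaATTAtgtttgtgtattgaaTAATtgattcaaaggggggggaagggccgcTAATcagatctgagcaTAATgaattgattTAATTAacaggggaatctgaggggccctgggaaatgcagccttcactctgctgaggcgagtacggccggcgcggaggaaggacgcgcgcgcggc
ISL1: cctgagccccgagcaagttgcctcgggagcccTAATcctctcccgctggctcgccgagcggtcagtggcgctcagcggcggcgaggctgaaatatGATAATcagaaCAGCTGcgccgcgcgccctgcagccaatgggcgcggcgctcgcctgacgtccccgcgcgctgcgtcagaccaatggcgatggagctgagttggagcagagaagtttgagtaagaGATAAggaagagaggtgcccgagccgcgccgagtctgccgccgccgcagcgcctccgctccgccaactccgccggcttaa
PHOX2A: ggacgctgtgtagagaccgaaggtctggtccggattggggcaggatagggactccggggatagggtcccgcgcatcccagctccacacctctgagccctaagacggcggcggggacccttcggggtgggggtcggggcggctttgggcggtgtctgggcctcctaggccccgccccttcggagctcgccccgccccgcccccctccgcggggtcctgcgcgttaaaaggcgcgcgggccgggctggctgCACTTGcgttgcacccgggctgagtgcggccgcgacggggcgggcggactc

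The HAND2 sequence held 5 matches to TAAT, 1 to CANNTG and 3 to GATAA, and that of ISL1 held 2, 1 and 2. The LMO1 sequence held 11 matches to TAAT and no other. The PHOX2A sequence held 1 match to CANNTG, and its start lies 1488 bases from the start of the gene in the annotation used for the positions above. The first of the 2 entries of GATA2 held 0 matches and the second 4 to CANNTG, and the 6 entries of GATA3 held 0 to 3 matches each. No entry of the factors held GGTGTGA. Of all 35116 promoter entries, 50.2% held TAAT, 68.7% CANNTG, 22.7% GATAA and 3.45% GGTGTGA, so that most of these motifs are common in windows of this length. The matches are a description of letters, and binding was not measured.

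The profiles of the factors over the 6 samples were compared by the root mean square distance between their log2 values, each centred on its own mean. Among the factors the closest pairs were HAND2 and ISL1 (0.109), GATA3 and ISL1 (0.114) and PHOX2A and HAND2 (0.125), and the farthest pair was LMO1 and INSM1 (0.555). Among all other genes that averaged 1 FPKM or more, the closest to each factor were EPHB3 and MYORG for PHOX2A (0.0336 and 0.0519), CELF4 and HEXA for HAND2 (0.0254 and 0.0288), FAM229A and MARCH9 for GATA2 (0.0414 and 0.0430), and RNF40 and HOXC6 for GATA3 (0.0234 and 0.0271). They were NAP1L1 and NSUN4 for ISL1 (0.0237 and 0.0254), FEV and INPPL1 for TBX2 (0.0331 and 0.0611), AL163051.2 and TRIOBP for LMO1 (0.0451 and 0.0551), and PCDHB6 and CXCL12 for INSM1 (0.0413 and 0.0795). With 6 samples and this many genes some profiles lie close for any gene, and these names are a description.

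The other transcription factors of the adrenergic state were described as a list of 20 genes, of which 17 averaged 1 FPKM or more, while DACH1, LMO3 and ISL2 did not. In limma without the block and with it, 0 of the 17 passed the FDR and 0 had an unadjusted p under 0.05 without the block. With the block 3 had one, all lower, against 15.7% of all genes. The F-test of the replicate number passed the FDR in 8 of the 17, against 49.6% of all genes. The mean with siPrp19 was lower in 6 and higher in 11, with a median log2 difference of 0.04. MYCN, the amplified oncogene of this line, was the most abundant, with a mean of 992 FPKM with siNC and 1040 FPKM with siPrp19. SOX4 had 90.6 and 84.2 FPKM and TBX3, a T-box paralog of TBX2, had 77.1 and 79.1 FPKM. In limma voom with the block 2 of the 17 were lower, against 4.49% of all genes, among them SOX11 (adjusted p = 0.00667). EYA1 (adjusted p = 0.0101) was higher, 1 of the 17 against 2.7% of all genes.

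The list of 20 cofactors and partners held the LIM-domain binding proteins, the E proteins that pair with HAND2, the FOG proteins of GATA factors and the repressors recruited by INSM1. Of these 16 were tested and LMO2, LHX3, LHX4 and LHX9 were below a mean of 1 FPKM. None passed the FDR in limma with or without the block (0 of 16), 1 had an unadjusted p under 0.05 without it, and the median log2 difference was 0.07, with 4 lower and 12 higher. With the block 7 of the 16 had an unadjusted p under 0.05, 2 lower and 5 higher, against 15.7% of all genes. The replicate number F-test passed the FDR in 3 of the 16, against 49.6% of all genes. LDB1, which LMO1 and ISL1 bind, had a mean of 69.1 FPKM with siNC and 78.1 FPKM with siPrp19, and the demethylase KDM1A had 65.8 and 70.8 FPKM. SSBP4 had 43.5 and 44.0 FPKM. In limma voom with the block the E protein gene TCF4 (adjusted p = 2.89e-04) was lower, 1 of the 16 against 4.49% of all genes. LDB1 (adjusted p = 0.0446), SSBP2 (adjusted p = 0.0444) and LMO4 (adjusted p = 0.00577) were higher, 3 of the 16 against 2.7% of all genes.

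All 18 adrenergic identity genes, the products of the lineage, were tested. In limma with or without the block 0 of 18 passed the FDR, 1 had an unadjusted p under 0.05 without it, and the median log2 difference was −0.03, with 10 lower and 8 higher. STMN2, a neuronal microtubule regulator, had a mean of 456 FPKM with siNC and 445 FPKM with siPrp19. The granin SCG2 had 332 and 347 FPKM, and TH, the rate-limiting enzyme of catecholamine synthesis, had 203 and 192 FPKM. In limma voom with the block, where DBH was not among the genes tested, the neuronal RNA-binding protein gene ELAVL4 (adjusted p = 5.33e-07) and the synaptotagmin gene SYT1 (adjusted p = 2.06e-04) were lower. The noradrenaline transporter gene SLC6A2 (adjusted p = 0.00235), CHGB (adjusted p = 0.00855) and MAOA (adjusted p = 0.00404) were higher, so that the products of the lineage did not move one way. Of the 17 tested there 2 were thus lower, against 4.49% of all genes, and 3 higher, against 2.7%. With the block 5 of the 18 had an unadjusted p under 0.05 (2 lower, 3 higher), against 15.7% of all genes. The replicate number F-test passed the FDR in 16 of the 18, against 49.6% of all genes.

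Of 24 transcription factors of the mesenchymal state, 14 were tested and 10 were below a mean of 1 FPKM, among them PRRX1, RUNX1, RUNX2, TBX18, MEOX1, MEOX2, SIX4, IRF1 and EGR3. In limma with or without the block 0 of 14 passed the FDR, 0 had an unadjusted p under 0.05 without it, and the median log2 difference was 0.01, with 7 lower and 7 higher. With the block 4 of the 14 had an unadjusted p under 0.05 (3 lower, 1 higher), against 15.7% of all genes, and the F-test of replicate number passed the FDR in 10, against 49.6%. TWIST1 had a mean of 140 FPKM with siNC and 142 FPKM with siPrp19, CBFB had 49.4 and 38.8 FPKM, and FOSL2 had 28.7 and 27.1 FPKM. In limma voom with the block FOSL1 (adjusted p = 1.75e-04) and CBFB (adjusted p = 8.20e-05) were lower, 2 of the 13 tested there against 4.49% of all genes. None of the 13 was higher, against 2.7% of all genes.

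Of 15 paralogs of the 8 factors 6 were tested, and GATA1, GATA5, GATA6, TBX1, TBX4, TBX5, ISL2, LMO2 and LMO3 were below a mean of 1 FPKM. In limma with or without the block 0 of 6 passed the FDR, 0 had an unadjusted p under 0.05 without it, and the median log2 difference was 0.04, with 2 lower and 4 higher. With the block 1 of the 6 had an unadjusted p under 0.05 (higher), against 15.7% of all genes, and the F-test of replicate number passed the FDR in 3, against 49.6%. TBX3 was the most abundant, followed by HAND1 with a mean of 69.7 FPKM with siNC and 72.7 FPKM with siPrp19 and INSM2 with 55.0 and 59.8 FPKM. INSM2 was thus far above INSM1 in these cells. Its siPrp19 sample was the higher one in all 3 pairs, as in 19.2% of all genes, with a log2 difference of 0.12. INSM2 did not pass the FDR in limma without the block or with it (adjusted p = 0.354), nor in limma voom with it (adjusted p = 0.214). In INSM1 the siPrp19 sample was the lower one in all 3 pairs. LMO4 was higher in limma voom with the block, as given above, 1 of the 6 against 2.7% of all genes.

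The 6 samples held 18326322 to 23472263 reads on genes, and at this depth the least abundant factor rested on 111 to 165 reads. The intervals of the differences set how large a change could have gone unseen. With the block, which sets aside the spread between replicate numbers, the bounds for HAND2, GATA3 and ISL1 were all within 0.20 of 0 on the log2 scale. For TBX2 the upper bound was 0.42, or 1.34 times the siNC level. The intervals were −0.17 to 0.34 for PHOX2A, −0.28 to 0.24 for GATA2 and −0.01 to 0.32 for LMO1. Without the block the intervals were wider, with −0.47 to 0.35 for HAND2, −0.35 to 0.39 for GATA3 and −0.27 to 0.39 for ISL1. The upper bound for TBX2 was then 0.56 and that for PHOX2A 0.61. The widest intervals were −0.64 to 0.60 for GATA2 and −0.60 to 0.90 for LMO1, whose upper bound is 1.87 times the siNC level.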

How the data were processed

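SK-N-BE(2) cells were transfected, RNA was extracted with Trizol and libraries were made with the NEBNext Ultra RNA kit, for 3 siNC and 3 siPrp19 samples. What the authors deposited is 1 file for each sample, with the FPKM of 58302 Ensembl genes. The submitters' processing notes name HISAT2 2.0.5, featureCounts 1.5.0-p3 and the build hg38. The annotation release and the use of strand in counting are not given in the sources used here. The authors' own test was DESeq2, which needs counts, so it was not repeated on FPKM.

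Groups and replicate numbers were taken from the labels. Symbols, positions and exon lengths came from GENCODE release 29 (GRCh38), which held 58039 of the identifiers. Median-of-ratios scaling factors were all 1.00, so the deposited values were already scaled between samples in this way. The values were turned into log2(FPKM + 0.1), so that fold changes are on that scale and those of low genes are understated. Genes that averaged 1 FPKM or more (14462) were compared in limma 3.58.1 under R 4.3.3 (lmFit, eBayes with trend), without a block since the methods name none. Benjamini-Hochberg adjustment of p-values covered all genes tested, with thresholds of FDR under 0.05, alone and with a fold change over 1.5. Exact permutation tests used scipy 1.17.1 in Python 3.11.15 on FPKM values, and tables and plots pandas 2.3.3, numpy 2.4.6 and matplotlib 3.10.9.

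Deviations from the group means correlated between same-numbered samples with r of 0.38, 0.57 and 0.64 over the 14462 genes, so the numbers in the labels were taken to pair the samples. Since FPKM times exon length came out as whole multiples of 1 read (within 0.02) for 95.8% of genes above 0 with a known length, and for 643 more with another length, reads were recovered for 14245 of the tested genes for limma voom. Promoters came from RefSeq (GRCh38.p14), which matched 6 of the 8 factors, not INSM1 or TBX2.

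The 8 factors, the gene lists and the tests were chosen with earlier results of these data known. Named were the 8 factors, PRPF19, in each list the 3 genes with the highest mean, any gene past the FDR in limma with or without the block, and the genes below a mean of 1 FPKM, and the 2 genes closest to each factor. List genes past the FDR in limma voom with the block were named after their values were seen. Some list genes are counted but not reported here by name. The alternatives were another pseudocount or filter, TPM, unscaled FPKM, quantile normalization, eBayes without trend and robust, the block, voom, and samples left out. The scripts were tested on simulated data.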

Additional observations from a re-analysis of the deposited data

How the results depend on the processing

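Leaving samples out in turn, singly or by replicate number, moved the log2 difference of PHOX2A between −0.099 and 0.23 (0.22 for single samples), HAND2 between −0.17 and 0.042, GATA2 between −0.28 and 0.20, GATA3 between −0.054 and 0.14, ISL1 between −0.015 and 0.16, TBX2 between −0.047 and 0.26 and LMO1 between −0.085 and 0.45. The sign of these 7 differences therefore depended on the samples kept, while INSM1 stayed between −0.64 and −0.46 and PRPF19 between −1.19 and −0.87. Leaving out a single sample breaks its pair, however. When whole replicate numbers were left out under the block, PHOX2A (0.011 to 0.23), ISL1 (0.032 to 0.10) and LMO1 (0.11 to 0.21) stayed above 0. HAND2 (−0.073 to −0.039) stayed below 0 there, and GATA2, GATA3 and TBX2 changed sign. Without replicate 3 of both groups GATA3 was −0.041 and TBX2 −0.047, with or without the block. None of the 8 factors or of the listed genes passed the FDR (limma) when a sample was left out.

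The replicate block alone left the counts of genes past the FDR at 0. The block with a filter of 5 FPKM on the mean gave 124 genes, 24 of them with a fold change over 1.5, and PRPF19 then passed (−1.04, limma adjusted p = 0.0176). It gave 1 of the other adrenergic factors, 2 of the identity genes and 1 of the mesenchymal factors. The block with voom on recovered reads gave 1024 genes, 74 of them with a fold change over 1.5, and PRPF19 (−1.04) and 1 of the 8 factors, INSM1 (−0.55), passed. It gave 3 of 17 other adrenergic factors, 4 of 16 cofactors, 5 of 17 identity genes, 2 of 13 mesenchymal factors and 1 of 6 paralogs. Among all genes tested there the share was 7.19%. LMO4 was counted both as a cofactor and as a paralog. At an unadjusted p under 0.05 the block gave 2265 genes and no block 225. The causes were not tested. In the block without replicate 1 or 2, GATA2 was 0.0052 and 0.093.

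eBayes without trend and robust gave 1 gene, also with a fold change over 1.5, and 2 in place of 6 factors in the replicate number F-test. INSM1 was below the filter of 5 FPKM and has no value there. Unscaled FPKM could not differ, since all scaling factors were 1.00. The order of the 8 levels was kept under TPM and without each siNC sample. With 3 samples a group, the spread between samples sets the intervals, and INSM1 and LMO1 rest on the fewest reads.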
